A study of Mus musculus with 12 samples.

Results

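The circadian clock of the mouse heart was followed here through 10 genes that make up the core of the clock and its direct outputs: *Arntl*, *Clock*, *Npas2*, *Per1*, *Per2*, *Per3*, *Nr1d1*, *Nr1d2*, *Dbp* and *Tef*. They were taken as every non-control probe of a whole-genome expression array that carries 1 of these symbols, which gave 10 of 37074 gene names and 25 of the 56605 probes on the array. Hearts came from male C57BL6/J mice, 3 per group, at 5 months of age. Control mice (C) received neither diabetes induction nor the drug. Diabetic mice (D) had been given streptozotocin, which kills pancreatic beta cells, at 50 mg/kg/day for 5 days, and were counted as diabetic at a blood glucose of at least 17 mM. C + P and D + P mice were the corresponding mice given pargyline, an inhibitor of monoamine oxidases, at 50 mg/kg/day for 12 weeks. The model is chemical, and its diabetes comes from loss of insulin rather than from a gene. The mice were kept in alternating light and dark, and the hour at which each heart was collected is not given in the sources used here. A clock gene's level depends on that hour, so group and hour of collection cannot be told apart in any comparison of these genes.

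In mammals the clock is a loop of transcription factors that runs in nearly every cell, cardiomyocytes included. BMAL1 (the product of *Arntl*) pairs with CLOCK or its relative NPAS2 and switches on genes that carry E-box elements, among them the *Per* genes, *Nr1d1*, *Nr1d2*, *Dbp* and *Tef*. PER proteins, with CRY proteins, then shut BMAL1:CLOCK down, and NR1D1 and NR1D2 (REV-ERB alpha and beta) repress *Arntl* itself. The level of *Arntl* therefore runs opposite to that of the *Per* and *Dbp* group over the day. DBP and TEF are factors of the PAR bZIP family that pass the rhythm on to D-box genes. *Arntl*, *Clock* and *Npas2* are called the BMAL arm below, and the other 7 genes the PER arm.

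Signals were normalized to the same distribution on all 12 arrays, and values are log2 normalized signal unless stated otherwise. They compare arrays within a probe and not 1 probe with another. A probe was tested when its signal was positive and significant over background on at least 50% of the arrays of each group, which kept 30859 probes. The 6 arrays of C and D shared 1 slide and the 6 of C + P and D + P the other, so slide and pargyline cannot be told apart in comparisons with and without the drug. On each slide the non-diabetic hearts filled 1 row and the diabetic hearts the other, so slide row and diabetes cannot be told apart in comparisons with and without diabetes. Between 23556 spots (D replicate 1) and 29231 spots (C replicate 2) of 59305 were well above background, and the median variation of repeated spots ran from 6.03% (C + P replicate 2) to 35.3% (D replicate 1). D replicate 1, D replicate 3 and C + P replicate 1 had the lowest mean correlation with the other arrays (0.954, 0.957 and 0.962, against 0.966 to 0.977). All 7 cardiomyocyte markers were above background, with a summed log2 level of 19.2 to 19.5 in every group. Of the 4 atrial markers 1 was not well above background on any array, and the summed atrial level was 8.34 to 8.74 in C, 8.54 to 8.98 in C + P, 8.41 to 8.91 in D and 7.93 to 8.79 in D + P. In whole hearts, fewer cells of a type and less RNA per cell cannot be told apart.

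Of the 25 probes 20 were tested, and they covered 9 of the 10 genes. *Npas2* had 1 probe, which was not well above background on any of the 12 arrays, so this CLOCK relative could not be followed. The untested probes were this one, 2 of the 3 of *Arntl*, 1 of the 4 of *Clock* and 1 of the 2 of *Per1*. The BMAL arm rested on 4 tested probes and the PER arm on 16. For each gene the probe with the highest mean signal, a tested one where there was one, stands for the gene below.

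*Arntl* is the gene the loop turns on, and its 3 probes, which the files place at separate sites of the gene on chromosome 7 (build mm9), did not read alike. The sequences are shown because the signal of the gene depends on which is read.
Arntl tested probe (chr7:120456978-120457037, plus strand): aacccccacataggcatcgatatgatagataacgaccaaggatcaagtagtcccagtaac
Arntl untested probe a (chr7:120439030-120439089, plus strand): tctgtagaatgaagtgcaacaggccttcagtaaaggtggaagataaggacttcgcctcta
Arntl untested probe b (chr7:120435023-120436706, plus strand): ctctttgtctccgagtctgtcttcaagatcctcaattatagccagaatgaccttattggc
Probe b is 60 bases long and its coordinates span 1684 bases, so it crosses a splice junction. Across the 12 arrays the tested probe correlated with probe b at r = 0.84 and with probe a at r = 0.05, as a description of dim probes. Probe a was well above background on only 2 arrays, C replicate 1 (5.49) and C replicate 3 (7.62), where the tested probe was at 4.08 and 3.83. Probe b was well above background on C + P replicate 1 (6.40) and D replicate 3 (6.41), and lay between 3.06 and 4.86 on the other 10. On those 10 arrays it had no measured level.

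Promoters of the members, from 250 bases before to 50 bases after the annotated start, were taken from RefSeq (GRCm38.p6) for 14 starts of 9 genes, all members but *Per2*. They are shown where they hold an exact match to a clock element, which 6 of the 14 promoters, from 5 of the 9 genes, did. Capitals mark the matches, searched on both strands: the E-box CACGTG, its variant CACGTT, the D-box TTATGTAA or TTACGTAA, and the REV-ERB/ROR element TAGGTCA or TGGGTCA. No member promoter held more than 1 of the 6 motifs.
Per1 promoter, chr11:69098699-69098998, plus strand: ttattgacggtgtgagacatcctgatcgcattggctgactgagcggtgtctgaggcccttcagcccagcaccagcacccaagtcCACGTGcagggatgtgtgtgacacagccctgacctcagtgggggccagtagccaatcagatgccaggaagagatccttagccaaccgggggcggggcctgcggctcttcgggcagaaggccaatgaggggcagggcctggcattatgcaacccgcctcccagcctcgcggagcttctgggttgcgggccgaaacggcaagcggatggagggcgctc
Tef promoter, chr15:81802423-81802722, plus strand: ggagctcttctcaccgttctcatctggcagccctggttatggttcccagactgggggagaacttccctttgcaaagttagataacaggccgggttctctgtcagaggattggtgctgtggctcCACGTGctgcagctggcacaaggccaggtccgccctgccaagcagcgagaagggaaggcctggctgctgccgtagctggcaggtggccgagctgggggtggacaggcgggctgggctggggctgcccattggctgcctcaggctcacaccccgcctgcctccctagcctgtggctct
Tef promoter, other start, chr15:81811164-81811463, plus strand: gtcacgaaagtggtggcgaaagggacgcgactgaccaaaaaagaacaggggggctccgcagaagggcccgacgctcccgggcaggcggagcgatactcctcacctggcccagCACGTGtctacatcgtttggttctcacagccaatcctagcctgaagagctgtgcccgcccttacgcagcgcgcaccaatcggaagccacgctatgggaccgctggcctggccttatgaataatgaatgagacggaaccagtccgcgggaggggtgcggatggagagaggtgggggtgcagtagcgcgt
Nr1d1 promoter, chr11:98775328-98775627, minus strand: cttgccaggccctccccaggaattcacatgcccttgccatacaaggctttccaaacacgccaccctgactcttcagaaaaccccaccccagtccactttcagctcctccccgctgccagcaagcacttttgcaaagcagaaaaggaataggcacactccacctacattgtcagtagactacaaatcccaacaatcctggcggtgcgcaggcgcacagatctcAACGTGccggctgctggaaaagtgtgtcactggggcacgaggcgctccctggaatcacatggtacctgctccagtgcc
Per3 promoter, chr4:151044616-151044915, minus strand: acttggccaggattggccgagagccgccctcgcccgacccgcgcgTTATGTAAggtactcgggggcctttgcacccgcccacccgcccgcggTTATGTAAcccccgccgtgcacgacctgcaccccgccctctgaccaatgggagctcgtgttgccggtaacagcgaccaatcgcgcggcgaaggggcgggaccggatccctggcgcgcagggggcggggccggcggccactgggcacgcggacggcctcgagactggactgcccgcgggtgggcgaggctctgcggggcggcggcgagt
Arntl promoter, chr7:113207261-113207560, plus strand: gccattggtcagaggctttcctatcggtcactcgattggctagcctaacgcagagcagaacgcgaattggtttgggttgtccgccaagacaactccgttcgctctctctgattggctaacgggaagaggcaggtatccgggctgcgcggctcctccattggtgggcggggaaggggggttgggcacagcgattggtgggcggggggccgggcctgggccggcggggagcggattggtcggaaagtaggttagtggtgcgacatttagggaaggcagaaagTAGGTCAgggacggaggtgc
CACGTG stood in 1 of the starts of *Per1* and in both starts of *Tef*, against 7.15% of all 32851 promoters in the table. CACGTT stood in *Nr1d1*, on the opposite strand (4.68% of all promoters). TTATGTAA occurred 2 times in *Per3* (0.938% of all promoters), and TAGGTCA lay just after 1 of the starts of *Arntl* (2.61%). TTACGTAA (0.119% of all promoters) and TGGGTCA (3.98%) matched no member. *Dbp*, *Nr1d2*, *Clock* and *Npas2* held no match to any of the 6 motifs in this window. A match describes these letters and is not a measured binding site.

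*Arntl* was dim in these hearts, and among the probes that stand for the 9 tested genes it had the widest range. In C its tested probe read 4.08, 4.23 and 3.83, in C + P 7.27, 5.40 and 3.29, in D 5.62, 5.47 and 5.69, and in D + P 4.405, 5.01 and 4.08. The 3 D arrays lay above all 3 C arrays and above all 3 D + P arrays, while the C + P arrays spanned the whole range. It was well above background on 2 arrays of C + P and 2 of D, and on none of C or D + P. For a ratio, arrays of the dimmer group were set no lower than the dimmest signal that counted as above background, which is called a floored ratio below. The mean of D was then 1.71-fold above C and 1.44-fold above D + P. In the limma fit, which used the signals as read, adjusted p was 0.474 and 0.531. The mean of D took in D replicate 3 (5.69), itself not well above background (dimmest such signal there 5.84). Floored ratios are therefore not strict lower bounds. The untested probes did not share 1 direction. Probe a, above background on 2 of 3 C arrays and in no other group, had floored ratios of 1.07 for C over D and 1.16 for C over C + P. Its C mean rested on C replicate 3 (7.62), with C replicate 1 at 5.49 and C replicate 2, not above background, at 3.36. Probe b, above background on 1 of 3 D arrays, had a floored ratio of 1.2 for D over C. It rested on D replicate 3 (6.41), and the other D arrays (4.86 and 3.96) had no measured level. A direction for the gene as a whole is therefore not given, and the floored ratios below are those of the tested probe.

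*Clock*, the partner of BMAL1, was well above background on all 12 arrays and varied less. Its brightest probe (mm9 chr5:76639992-76640051, minus strand) read 8.81, 9.03 and 8.74 in C, 9.36, 9.29 and 9.01 in C + P, 9.79, 9.02 and 9.02 in D, and 8.69, 7.95 and 8.88 in D + P. The D + P arrays lay below all arrays of D and of C + P and overlapped those of C. A second *Clock* probe kept that order against D (7.60 to 7.69 in D + P, 8.003 to 8.31 in D). Another tested probe, designed on a cDNA clone (mm9 chr5:76664578-76664637, minus strand) and well above background on 8 arrays, ran the other way, at 5.95 to 6.25 in D + P against 4.93 to 5.52 in D. The *Clock* probes thus did not share a direction, and which transcripts each reads was not tested. *Npas2* read 3.104 to 3.49 on 11 arrays and 4.88 on D + P replicate 3, all without a measured level.

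The 3 *Per* genes encode the repressors that close the loop. *Per1* read 11.93, 11.96 and 11.76 in C, 11.36, 12.15 and 12.41 in C + P, 12.02, 11.90 and 11.22 in D, and 12.24, 11.61 and 11.23 in D + P. All 4 groups overlapped for *Per1*. *Per2* read 9.18, 9.80 and 9.35 in C, 8.05, 8.78 and 9.69 in C + P, 9.73, 9.40 and 8.65 in D, and 9.94, 9.46 and 9.92 in D + P. Its mean was highest in D + P (9.77 ± 0.27, SD, n = 3) and lowest in C + P (8.84 ± 0.82), but C + P replicate 3 lay within the D + P range. *Per3* read 8.69, 8.91 and 8.78 in C, 7.42, 8.73 and 9.25 in C + P, 8.80, 8.53 and 7.67 in D, and 8.59, 9.18 and 9.21 in D + P. The 2 low arrays of *Per3* were C + P replicate 1 and D replicate 3, which were also the lowest for *Per2*. Both other *Per3* probes followed the first across arrays (r = 0.83 and 0.88).

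*Nr1d1* and *Nr1d2* encode the repressors of *Arntl*. *Nr1d1* read 8.85, 8.59 and 8.61 in C, 8.83, 8.68 and 8.40 in C + P, 9.30, 8.91 and 8.99 in D, and 7.95, 9.12 and 8.87 in D + P. All D arrays lay above all C arrays, the nearest pair being 8.91 and 8.85. *Nr1d2* read 11.24, 11.16 and 11.24 in C, 9.58, 10.96 and 10.94 in C + P, 11.39, 11.26 and 10.96 in D, and 10.69, 11.12 and 11.23 in D + P. All C + P arrays were below all C arrays, and C + P replicate 1 was the lowest of the 12, with 10.69 (D + P replicate 1) the next. Both further *Nr1d2* probes also had their lowest value on that array (9.74 and 8.57).

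*Dbp* and *Tef* encode the PAR bZIP outputs. *Dbp* read 13.59, 13.56 and 13.70 in C, 12.37, 12.96 and 13.34 in C + P, 13.91, 13.28 and 12.98 in D, and 13.73, 12.999 and 13.24 in D + P. Every C + P array was below every C array on both *Dbp* probes. *Tef* read 13.97, 14.14 and 14.06 in C, 13.33, 13.61 and 13.98 in C + P, 14.01, 13.71 and 13.19 in D, and 14.36, 13.66 and 13.71 in D + P. The brightest *Tef* probe overlapped in all comparisons, and of its 3 other tested probes 2 had their lowest value on C + P replicate 1.

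**Figure D1:**
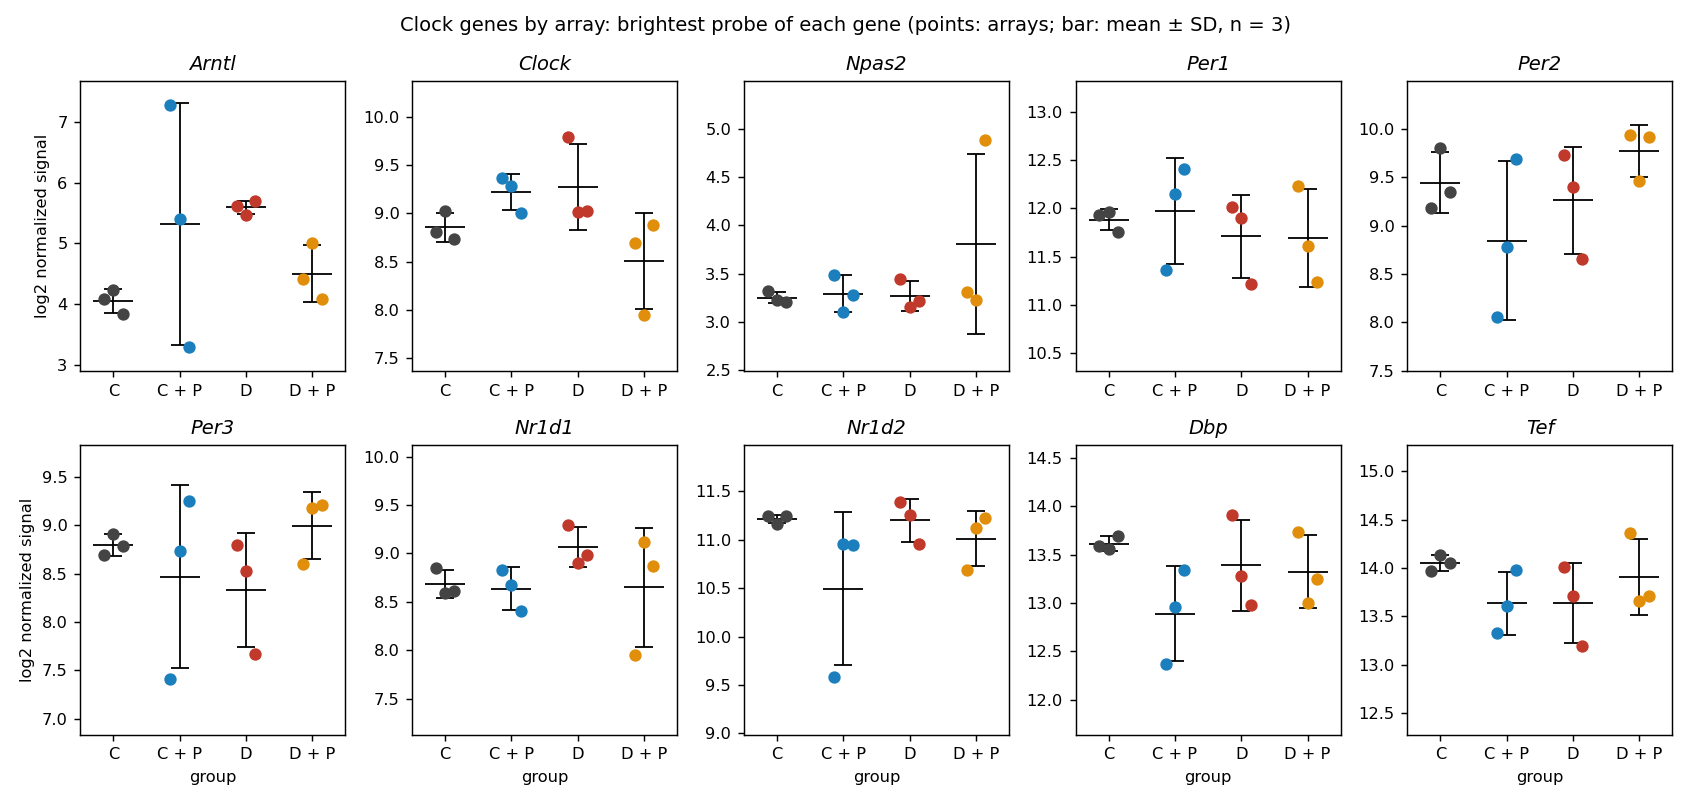
Log2 normalized signal (vertical axis, each panel with its own range) of the brightest probe of each of the 10 genes in the 4 groups; points are arrays and bars the mean ± SD of 3. *Arntl* spans 3.29 to 7.27 in C + P alone, while the C arrays lie close together; *Npas2* has no measured level on any array.

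The control hearts were alike and the others were not. Over the 9 genes with a tested probe the SD among 3 arrays had a median of 0.11 for C, 0.55 for C + P, 0.43 for D and 0.39 for D + P. C had the smallest SD of the 4 groups for 7 of the 9 genes, and C + P the largest for 6. Over all tested probes C had the smallest SD for 46.8% and C + P the largest for 24.5%, while D had the largest for 40.3%. C + P replicate 1 held the lowest value of 11 of the 16 tested PER arm probes, where 11.2% of all tested probes had their lowest value on that array. Several of these probes read the same gene, and by the probe that stands for each gene the count was 4 of 7. D replicate 3 and D replicate 1 held the lowest of 2 probes each (13.9% and 18.2% of all probes). The part of hour of collection and of array quality in this spread was not tested.

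D against C asked what diabetes changed without the drug. No member probe passed an adjusted p of 0.05 in limma (0 of 20), and the lowest adjusted p was 0.397. In this comparison 0.00648% of all tested probes passed. At an unadjusted p under 0.05 there were 2 member probes, against 10.8% of all probes: the second *Clock* probe, 0.50 ± 0.18 (SE) higher in D (adjusted p = 0.397), and the *Tef* probe that crosses a junction, 0.71 ± 0.27 lower (adjusted p = 0.407). This *Tef* probe was well above background on 3 of 3 C arrays but on 1 of 3 D arrays. When each array was left out in turn, the number under 0.05 ran from 0 (without C replicate 2 or D replicate 1) to 6 (without C + P replicate 1). The tested *Arntl* probe was 1.71-fold higher in D, the floored ratio given above, with probe a, bright on C replicate 3, running the other way. For the probe that stands for each other gene the difference was 0.42 ± 0.28 for *Clock*, 0.38 ± 0.27 for *Nr1d1*, -0.46 ± 0.43 for *Per3* and -0.42 ± 0.26 for *Tef*. The other 4 genes lay between -0.22 (*Dbp*) and -0.01 (*Nr1d2*). Of the 7 PER arm genes 6 had a value below 0, none past the threshold, with a median of -0.18 beside -0.01 for all probes. Without D replicate 3, 3 of these 6 were above 0: *Per1* (0.08), *Per2* (0.12) and *Nr1d2* (0.11), while *Per3* was at -0.13 and *Tef* at -0.19, and the PER arm median was 0.08. Without D replicate 1 *Clock* was at 0.16, *Per3* at -0.69 and the PER arm median at -0.42. Groups did not overlap for 8 of the 20 member probes (3 higher and 5 lower in D), against 22.2% of all probes. Adipocyte markers, of which 3 of 5 were not well above background on any array, had a summed log2 level, set almost wholly by *Fabp4*, of 15.1 to 15.3 in C and 15.5 to 15.8 in D. This sum is close to the level of 1 gene and does not measure how many adipocytes there were. Immune markers (1 of 5 not above background) had a summed level of 12.84 to 13.10 in C and 12.44 to 12.76 in D. The part of either in the result was not tested.

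For mice on the drug, the same question was put to D + P against C + P. In limma, 0 of 20 member probes passed (0.0454% of all probes did), with a lowest adjusted p of 0.614. At an unadjusted p under 0.05 there were 4, against 7.46% of all probes, and from 0 (without C + P replicate 1) to 8 (without C + P replicate 3) when each array was left out. *Clock* was 0.71 ± 0.28 lower in D + P (adjusted p = 0.619) and *Per2* 0.93 ± 0.40 higher (adjusted p = 0.651), and 1 further probe each of *Nr1d2* and *Tef* were 0.47 ± 0.18 and 0.63 ± 0.25 higher. Leaving out C + P replicate 1 brought *Per2* to 0.53 and that *Tef* probe to 0.38, and leaving out D + P replicate 2 brought *Clock* to -0.44. The tested *Arntl* probe had a floored ratio of 1.19 for C + P over D + P (adjusted p = 0.822), with C + P replicate 3 not above background. This ratio was 2.41 without C + P replicate 3. Without C + P replicate 1 no ratio in that direction was left, and the fitted difference changed sign. All PER arm genes but *Per1* had a value above 0, with a median of 0.44 beside 0.01 for all probes, which was 0.11 without C + P replicate 1 and 0.66 without C + P replicate 3. *Nr1d1*, at 0.01, was below 0 without C + P replicate 3 (-0.11), D + P replicate 2 (-0.23) or D + P replicate 3 (-0.10). Groups did not overlap for 4 of the 20 probes, against 13.9% of all probes. Fibroblast markers had a summed log2 level of 15.37 to 15.45 in C + P and 15.54 to 15.76 in D + P. The adipocyte sum, set almost wholly by *Fabp4*, was 14.51 to 15.30 in C + P and 15.36 to 15.80 in D + P. No marker of these lists passed, and the sums of the other cell types overlapped. The part of these markers in the result was not tested. For diabetes averaged over both drug states 0 of 20 member probes passed (0.107% of all probes did), and 1, the *Tef* probe that crosses a junction (-0.44 ± 0.19), had an unadjusted p under 0.05 against 11.4% of all (0 to 2 when each array was left out). That probe was well above background on 1 of 3 D arrays. Among the probes that stand for a gene, *Arntl* aside, the widest 95% interval, that of *Per3*, ran from -0.64 to 0.71, and the narrowest, that of *Tef*, from -0.48 to 0.34.

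What pargyline changed in non-diabetic hearts was read from C + P against C, where drug and slide coincide. Of the 7 PER arm genes 6 had a value below 0, with a median of -0.42 beside -0.01 for all probes. The difference was -0.72 ± 0.30 and -0.80 ± 0.36 on the 2 *Dbp* probes, -0.72 ± 0.33 for *Nr1d2*, -0.60 ± 0.40 for *Per2*, -0.42 ± 0.26 for *Tef* and -0.33 ± 0.43 for *Per3*. These sizes depended on C + P replicate 1. When it was left out the 2 *Dbp* probes were at -0.46 and -0.31, *Nr1d2* at -0.26, *Per2* at -0.21, *Tef* at -0.26, *Per3* at 0.20 and the PER arm median at -0.21. When C + P replicate 3 was left out *Per2* was at -1.03, *Per3* at -0.72 and the PER arm median at -0.72. The tested *Arntl* probe had a floored ratio of 1.42 for C + P over C on all 3 arrays (probe a ran the other way) and of 2.87 without C + P replicate 3. C + P replicate 3 was not above background and read below every C array. Without C + P replicate 1 no ratio in that direction was left. The difference of *Clock* was 0.36 ± 0.28. *Per1* was at 0.09 (0.40 without C + P replicate 1 and -0.13 without C + P replicate 3) and *Nr1d1* at -0.05 (-0.14 and 0.07 without the same arrays). In limma 0 of 20 passed (0.0324% of all probes did), and 4 had an unadjusted p under 0.05 against 4.43% of all: both *Dbp* probes, a *Tef* probe (-0.73 ± 0.25, or -0.48 without C + P replicate 1) and the *Clock* probe designed on a cDNA clone (0.56 ± 0.24, or 0.33 without C + P replicate 3). The number under 0.05 ran from 1 (without C replicate 1, C replicate 3 or C + P replicate 1) to 10 (without C + P replicate 3). Every member probe had an adjusted p of 1. Groups did not overlap for 8 of the 20 probes (7 lower and 1 higher in C + P), against 15.3% of all probes. With array weights estimated by limma, which gave C + P replicate 1 a weight of 0.296 and C + P replicate 2 one of 9.47, the first *Dbp* probe (-0.64, adjusted p = 0.0192) and a *Tef* probe (-0.61, adjusted p = 0.0173) passed, in a fit in which 7.32% of all probes did. This estimate stopped before its convergence tolerance, and weights taken gene by gene left 0 of 20.

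D + P against D asked what the drug changed in diabetic mice, again confounded with the slide. In limma 0 of 20 member probes passed, as did 0% of all probes, and 3 had an unadjusted p under 0.05 against 13.3% of all. All 3 were *Clock* probes: the first 2 were lower in D + P, by -0.77 ± 0.28 and -0.54 ± 0.18 (adjusted p = 0.282 and 0.271), and the cDNA clone probe 0.79 ± 0.24 higher (adjusted p = 0.232). The clone probe was well above background on 1 of 3 D arrays, so its difference is one of signal and not of measured level. The first *Clock* probe was at -0.51 without D replicate 1 and at -0.49 without D + P replicate 2. The number under 0.05 ran from 2 (without D replicate 1) to 6 (without C + P replicate 1) when each array was left out. The tested *Arntl* probe was 1.44-fold higher in D, the floored ratio given above. The PER arm genes lay between -0.41 (*Nr1d1*) and 0.66 (*Per3*), with a median of -0.02 beside -8e-04 for all probes. That median had no stable sign, at 0.19 without D replicate 1, 0.21 without D + P replicate 3 and -0.27 without D replicate 3. *Dbp* (-0.06) and *Per1* (-0.02) were at 0.19 and 0.13 without D replicate 1 and both at -0.27 without D replicate 3. *Nr1d1* was at -0.07 without D + P replicate 1 and at -0.65 without D + P replicate 2, and *Per3* at 0.33 without D replicate 3. Groups did not overlap for 6 of the 20 probes, against 17% of all probes. All 5 endothelial markers had a value above 0 here, with a median of 0.45, the largest being *Kdr* (0.75 ± 0.18, adjusted p = 0.176). None of the 5 passed, and their part in the result was not tested.

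The interaction, the effect of diabetes in treated mice minus that in untreated mice, cancels an additive slide effect. It was not past the threshold for any member probe (0 of 20, against 0.00648% of all probes), and the lowest adjusted p was 0.669. At an unadjusted p under 0.05 there were 6 of 20, against 7.03% of all probes. Of these 3 belonged to the BMAL arm: the tested probe of *Arntl*, given without a size because it had no measured level in C and D + P (adjusted p = 0.709), and 2 probes of *Clock* at -1.13 ± 0.39 and -0.75 ± 0.26. The other 3 belonged to the PER arm and were above 0: a *Per3* probe at 1.62 ± 0.57 and 2 *Tef* probes at 1.00 ± 0.35 and 2.21 ± 0.87, the latter 1.30 without C + P replicate 1. Over the PER arm genes the values ran from -0.37 (*Nr1d1*) to 1.11 (*Per2*), with a median of 0.66 beside -0.0038 for all probes. Without C + P replicate 1 *Per2* was at 0.71 and the median at 0.40, and *Nr1d1* was at -0.02 without D + P replicate 1 and at -0.61 without D + P replicate 2. When each array was left out, the number under 0.05 ran from 4 (without D replicate 3) to 11 (without C + P replicate 3), with 9 without D replicate 1. Without C + P replicate 1 and D replicate 3 together, a choice made after the data were seen, it was 4, the PER arm median was 0.13 with 4 of 7 genes above 0, *Nr1d2* went from 0.53 to -0.05, *Per3* from 0.99 to 0.13 and the *Per3* probe at 1.62 to 0.82. The 2 *Tef* probes went to 0.52 and 0.99. *Per1*, at -0.11 (-0.42 without C + P replicate 1), turned to 0.12 when D + P replicate 3 was left out, to 0.11 when C + P replicate 3 was and to 0.04 when D replicate 1 was.

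**Figure D2:**
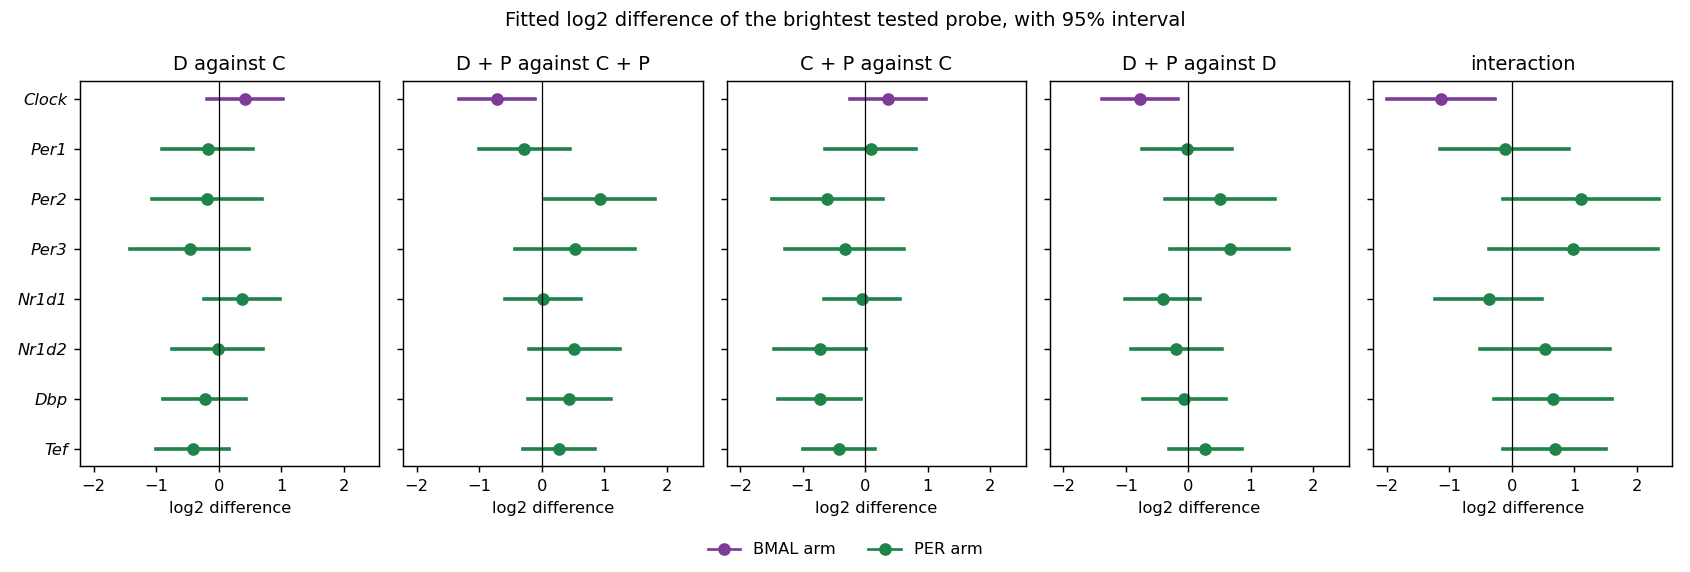
Fitted log2 difference (horizontal axis) with its 95% interval for the brightest tested probe of 8 genes in 4 pairwise comparisons and the interaction of diabetes and pargyline; *Arntl* is left out because its tested probe had no measured level in C and D + P. *Clock* lies right of 0 in D against C and in C + P against C and left of 0 in the other panels, and no difference passed an adjusted p of 0.05.

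The arms were also set against each other on each array, as the mean deviation of the PER arm genes from their 12-array mean minus that of the BMAL arm genes. The difference was 0.46, 0.46 and 0.61 in C, -1.78, -0.30 and 0.75 in C + P, -0.18, -0.09 and -0.66 in D, and 0.40, 0.42 and -0.09 in D + P. C was on the PER side on every array and D on the BMAL side on every array, and the groups of C and D did not overlap. C + P held both ends of the scale, with a mean of -0.44 ± 1.27 (SD, n = 3) that was 0.22 without replicate 1 and -1.04 without replicate 3. The group means were 0.51 ± 0.09 in C, -0.31 ± 0.30 in D (-0.13 without replicate 3) and 0.24 ± 0.29 in D + P (0.15 without replicate 2 and 0.41 without replicate 3). These are descriptions, since the genes were set in arms with results of these data known. On 8 arrays *Arntl* and on all 12 *Npas2* entered at a signal not well above background. Without *Npas2*, D + P replicate 3 went from -0.09 to 0.54 and the mean was 0.61 for C, -0.60 for C + P, -0.53 for D and 0.51 for D + P.

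**Figure D3:**
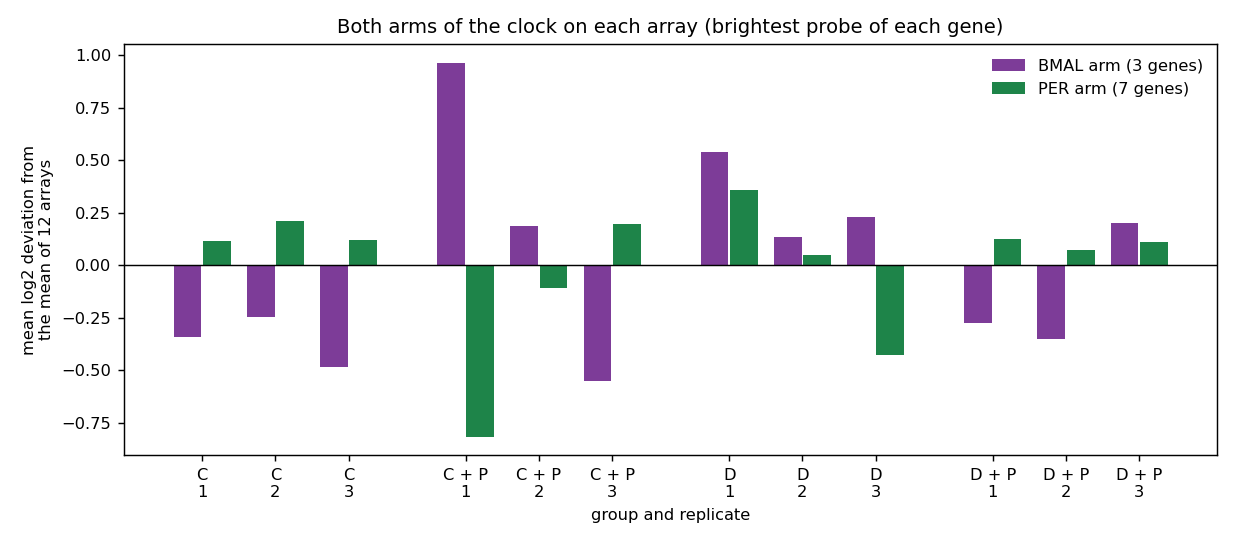
Mean log2 deviation from the 12-array mean (vertical axis) of the 3 BMAL arm genes and the 7 PER arm genes on each array (horizontal axis, group and replicate). On C + P replicate 1 the BMAL arm is at 0.96 and the PER arm at -0.82, and on the C arrays the bars point the other way.

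*Arntl* was related to each of the other 9 members over the 12 arrays, with 100000 permutations and Benjamini-Hochberg adjustment over the 9. On 8 of the 12 arrays *Arntl* was not well above background, so these values relate the probe's signal and not a measured level of the transcript. The members were chosen with results of these data known, and the permutations over 12 arrays moved values across groups and slides. The p-values are therefore given as a description and not as a test of opposed arms. *Per3* ran opposite to *Arntl* (Pearson r = -0.78, permutation p = 0.002, adjusted 0.018; Spearman rho = -0.66, permutation p = 0.0238, adjusted 0.169). *Per2* (r = -0.73, permutation p = 0.00659, adjusted 0.0297; rho = -0.42, permutation p = 0.175, adjusted 0.262) and *Tef* (r = -0.67, permutation p = 0.0163, adjusted 0.0489; rho = -0.56, permutation p = 0.062, adjusted 0.169) also passed by r and not by rho. *Dbp* was at r = -0.64 (permutation p = 0.0248, adjusted 0.0558; rho = -0.45) and *Nr1d2* at r = -0.61 (adjusted permutation p = 0.0982; rho = -0.14). *Per1* was at r = -0.43, *Clock* at 0.40 and *Nr1d1* at 0.45, none past the threshold (adjusted permutation p = 0.201 to 0.212). *Npas2* had no measured level, and with it left out of the adjustment 4 of 8 passed, the fourth being *Dbp* (adjusted permutation p = 0.0496). Over all 12 arrays *Nr1d1* was the only PER arm gene with r above 0.

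The relations depended on C + P replicate 1, the array with the highest *Arntl*. Without it r was -0.58 for *Per3*, -0.48 for *Per2*, -0.56 for *Tef* and -0.31 for *Dbp*, *Nr1d2* turned to 0.11, and none of the 9 passed (lowest adjusted permutation p = 0.216). Without C + P replicate 3, the array with the lowest *Arntl*, 4 passed. Without both, the 2 arrays farthest from the median of *Arntl*, r was -0.48 for *Per3*, -0.46 for *Per2* and -0.59 for *Tef*, and no relation passed (adjusted permutation p = 0.412 for each). *Nr1d2* went to r = -0.05. Within the slide of C and D, r was -0.58 for *Per3*, -0.23 for *Per2* and -0.66 for *Tef*, and within that of C + P and D + P -0.88, -0.91 and -0.71, with no adjusted exact permutation p under 0.112 on either slide. On deviations from the group means r was -0.75 for *Per3*, -0.79 for *Per2* and -0.52 for *Tef*. Without D replicate 3 r was about as large as over all arrays, at -0.79, -0.71 and -0.67, although none of the 9 passed (adjusted permutation p = 0.0676 for each of these 3). Without D replicate 1 the count was 4, and *Dbp* reached r = -0.83 (adjusted permutation p = 0.00801).

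**Figure D4:**
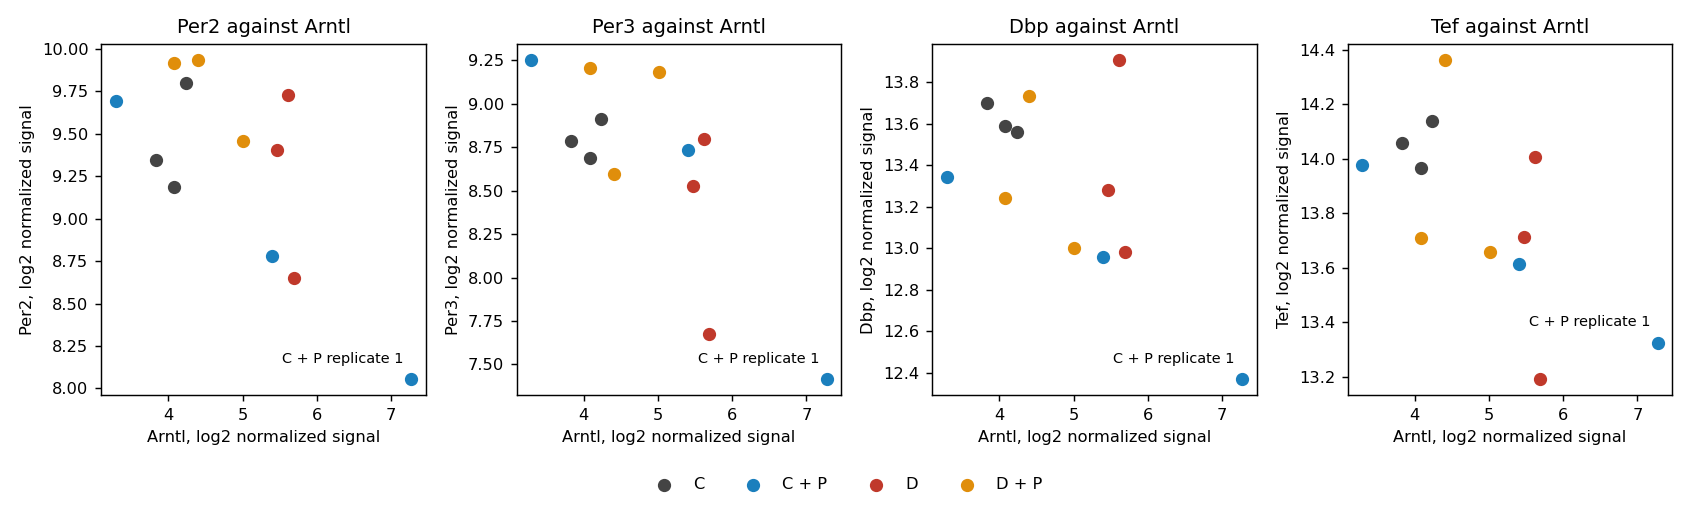
Log2 normalized signal of *Per2*, *Per3*, *Dbp* and *Tef* (vertical axes) against that of *Arntl* (horizontal axis) on the 12 arrays, coloured by group. C + P replicate 1 is at the far right in each panel, at 7.27 for *Arntl*, with the lowest value of *Per2*, *Per3* and *Dbp*.

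Further genes of the clock were read from a list of 20, of which 18 had a tested probe. None passed in any comparison. *Hlf*, the third PAR bZIP factor, had the largest change of the list in 4 of the 6 comparisons. It read 9.09, 9.19 and 8.95 in C, 7.14, 8.14 and 8.78 in C + P, 7.99, 8.59 and 8.44 in D, and 8.72, 8.92 and 8.62 in D + P. The C arrays of *Hlf* lay above all others, and its difference was -1.06 ± 0.34 in C + P against C (adjusted p = 0.997), -0.74 ± 0.34 in D against C (adjusted p = 0.464) and, on the drug, 0.74 ± 0.34 for D + P against C + P (adjusted p = 0.672). The first of these was -0.61 without C + P replicate 1, and the last was 0.29 without that array and 1.12 without C + P replicate 3. In the interaction it was 1.47 ± 0.48 (adjusted p = 0.653), and the 3 others of the list with an unadjusted p under 0.05, named after their values were seen, were *Cry2* (0.82 ± 0.29), *Noct* (0.82 ± 0.31, listed as *Ccrn4l*) and *Arntl2* (0.69 ± 0.31). *Ciart*, an E-box repressor of the clock, had the largest difference in D + P against D (-0.84 ± 0.43, adjusted p = 0.426) and its lowest value, 6.46, on C + P replicate 1. The list median in the interaction was 0.20 beside -0.0038 for all probes.

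Of 10 genes known as outputs of the clock in heart, 1 passed. *Kcnip2*, a subunit of the channels that carry the transient outward potassium current, was 0.77 ± 0.11 higher in diabetes averaged over pargyline (limma, adjusted p = 0.0423). It read 6.52, 6.58 and 6.59 in C, 6.68, 6.28 and 6.18 in C + P, 7.31, 7.37 and 7.19 in D, and 7.07, 7.16 and 7.33 in D + P. All 6 diabetic hearts, which were also those of the same slide row, were above all 6 non-diabetic ones, by 0.73 ± 0.16 without and 0.81 ± 0.16 with the drug, neither past the threshold alone (adjusted p = 0.244 and 0.186). When each array was left out in turn the value stayed between 0.72 and 0.84 and the adjusted p between 0.0359 and 0.155. Only without C + P replicate 1 (0.0409) or D + P replicate 1 (0.0359) was it still called. With an intensity correction by normexp it was 0.56 (adjusted p = 0.101), and no filter and the replicate block gave adjusted p = 0.0582 and 0.131. *Cdkn1a*, which encodes a cell cycle inhibitor, had the largest difference of the list in C + P against C (1.39 ± 0.29, adjusted p = 0.383).

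**Figure D5:**
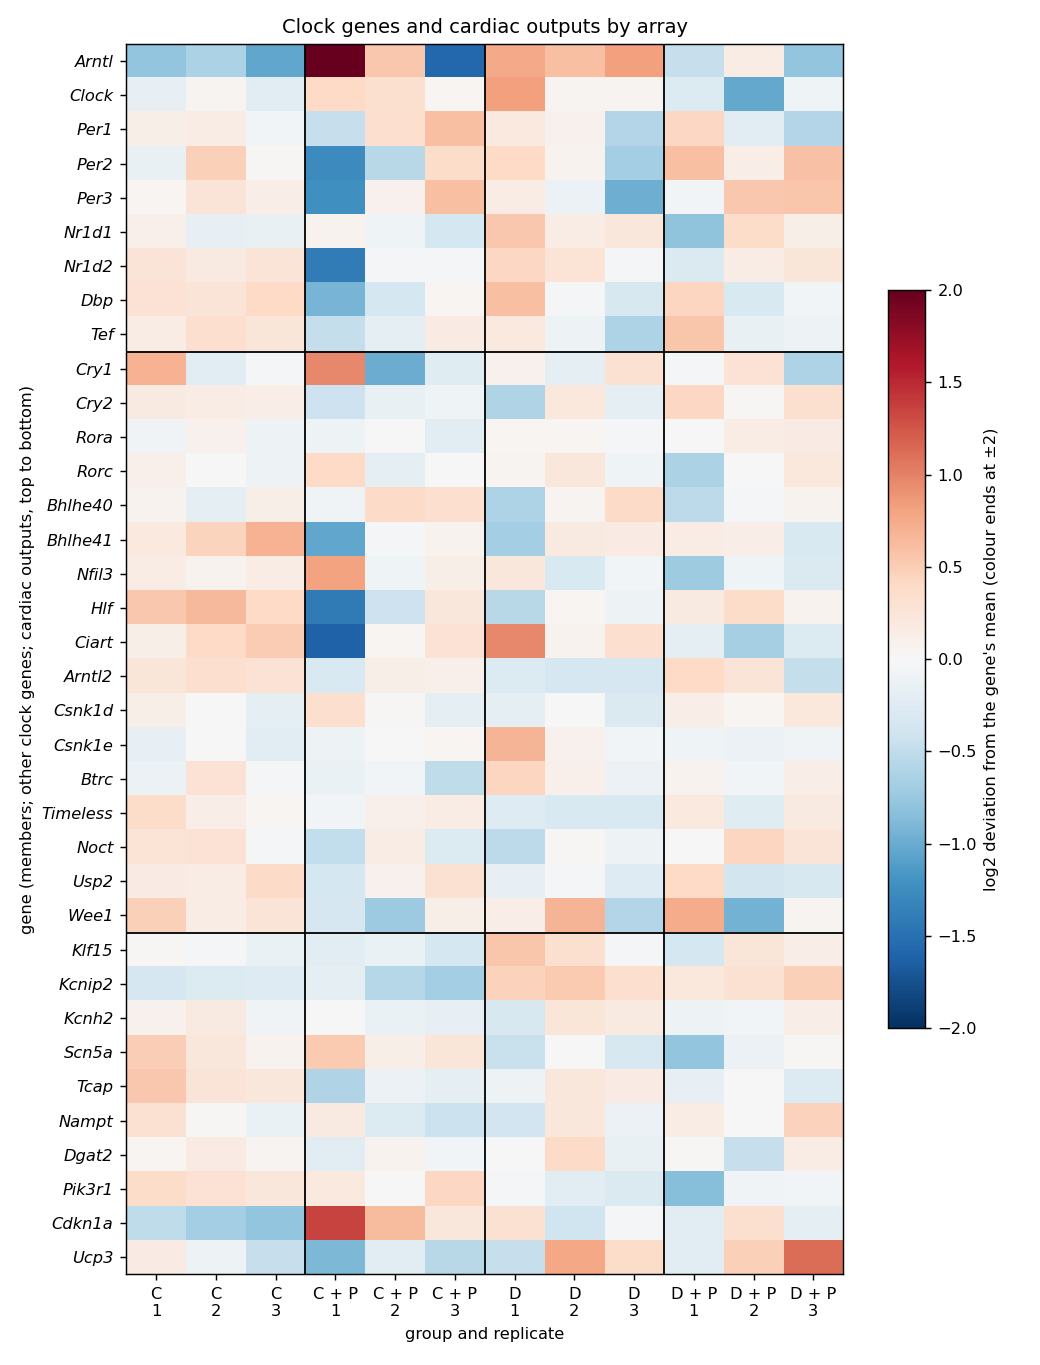
Log2 deviation of each gene from its own 12-array mean (colour, red higher and blue lower, ending at ±2) for 9 members, other clock genes and 10 cardiac outputs (rows) on the 12 arrays (columns, by group and replicate). C + P replicate 1 is low for *Hlf* and *Ciart* as for *Per2*, *Per3*, *Nr1d2* and *Dbp*, and *Kcnip2* is higher on all 6 arrays of D and D + P.

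Signals that can set peripheral clocks were read beside the members. Of 7 glucocorticoid response genes and 7 temperature response genes, 0 passed in any comparison. *Errfi1* had the largest value of the first list (-1.55 ± 0.41 in the interaction, adjusted p = 0.565, and 1.44 ± 0.29 in C + P against C, adjusted p = 0.349), and *Hsph1* of the second (-1.06 ± 0.20 in D + P against C + P, adjusted p = 0.186). The cold-inducible *Cirbp* was 0.62 ± 0.14 higher with diabetes averaged over pargyline (adjusted p = 0.155). Of 7 immediate early genes 5 rose in C + P against C, among them *Egr1* (3.82 ± 0.27, adjusted p = 0.000797), which read 11.60 to 12.37 on the 3 C + P arrays and 7.22 to 8.43 on the other 9. *Per1*, itself induced by such stimuli, was 0.09 ± 0.33 higher there, with a 95% interval of -0.64 to 0.82. Their part in the values of the clock genes was not tested.

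Over the 12 arrays the genes most like *Arntl* by Pearson's r, outside the members, were *1110002O04Rik* (0.95), *Irs1* (0.94), an immunoglobulin kappa variable segment (0.93), *Lelp1* (0.92) and *Klhdc7b* (0.91). Among those most like *Dbp* were *Ccdc88c* (0.97), *Cd200* (0.95), *Chid1* (0.94) and *Spaca4* (0.93). They are among the highest of 30859 probes over only 12 arrays and are given as a description. Without C + P replicate 1 they were 0.82 to 0.91 for *Arntl* and 0.86 to 0.94 for *Dbp*. *Ccdc88c* read 3.67 to 5.70, where the dimmest signal that counted as above background was 4.72 to 5.84 by array. The *Arntl* probe itself was well above background on 4 of the 12 arrays.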

How the data were processed

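RNA from 12 mouse hearts, 3 each of C, C + P, D and D + P, was hybridised to 1-colour Agilent arrays, and the deposited scanner files hold spot intensity made by the authors with Feature Extraction 12.0.0.7, together with flags of another kind (signal above background, outlier, saturation). No spot was saturated. The processed green intensity was taken to log2, outlier spots were set as missing, arrays were quantile normalized and spots of 1 probe averaged (R 4.3.3, data.table, version 1.17.8). A probe was kept where, in every group, 50% or more of the arrays had a positive and significant signal (30859 of 56605) and fitted with limma 3.58.1 on 4 groups, with Benjamini-Hochberg adjustment over all of them at 0.05. The residual degrees of freedom were 8 and the prior ones 2.62. The fit was tested on simulated data. The precision is limited by 3 arrays per group, and p-values measure the spread between these mice.

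All probes that carry a member's symbol were accounted for, the one with the highest mean signal (a tested one where there was one) stood for its gene, and others were given where they differed in sign or call. Genes of the further lists were counted, and named where they passed or had the largest change of their list. The 5 genes most correlated with *Arntl* and with *Dbp* were named as a description. A gene of the further lists and one of those most correlated are not reported here. Members and lists were chosen with earlier results of these data known. Alternatives were 75th percentile scaling, normexp with an offset of 50, the authors' own normalized values, other filters, array weights, slide and replicate number as a block, the methods' t-test and leaving out each array. Probe coordinates are those of the files (mm9), and promoters are from RefSeq (GRCm38.p6).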

Additional observations from a re-analysis of the deposited data

Results flagged for a closer look

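A *Tef* probe (mm9 chr15:81656928-81656987) had all D arrays below all C arrays and all D + P arrays above all C + P arrays. The nearest pair in the former was 11.28 and 11.28 (C replicate 3 and D replicate 2), which differ only in the third decimal. Its interaction was 1.00 ± 0.35 (SE) in the limma fit, with an adjusted p of 0.672.

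Another *Tef* probe (mm9 chr15:81647233-81647292) had all C + P arrays below all C arrays and all D + P arrays above all D arrays, again with 1 pair (9.60 and 9.60, C + P replicate 3 and C replicate 3) apart only in the third decimal. Its interaction was 2.21 ± 0.87 (adjusted p = 0.692). C + P replicate 1 was its lowest array, at 6.63, and without it the interaction was 1.30.

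The *Arntl* probe that crosses a splice junction (probe b), left untested because it was dim, was well above background on C + P replicate 1 (6.40) and D replicate 3 (6.41), where the C arrays read 3.11 to 3.15.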

How the results depend on the processing

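The count of member probes past the threshold was above 0 in 1 of 141 combinations of comparison and alternative. With array weights it was 2 in C + P against C, in a fit that called 2259 of all probes in place of 10, and the cause was not tested. Over all probes the count for diabetes averaged over pargyline was 33, and it was 2256 with array weights, 348 with gene by gene weights and 4 with the replicate block. When each array was left out in turn, this count over all probes ran from 3 (without C replicate 3, among others) to 113 (without D + P replicate 1). The methods' t-test called 0 member probes in the 4 pairwise comparisons, after Benjamini-Hochberg adjustment and at the Bonferroni threshold. With the replicate block 0 member probes were called in each of the 6 comparisons, and it changed no call of a member. The replicate numbers did not pair the samples: 4 of 18 same-numbered pairs deviated together (r over 0.1), and 5 of 12 arrays correlated best with an array of their own number. Of 1541 alternative values of 68 member tests, 52 had the opposite direction, none of them for a test with an unadjusted p under 0.05.

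The count of relations of *Arntl* that passed was 3, 1 with 75th percentile scaling, 2 with the authors' series table and 0 to 4 when each array was left out, with 1 without C replicate 2 or C + P replicate 2 and 0 without C + P replicate 1 or D replicate 3, or both. The mean arm difference in C was 0.51, and it was 0.61 with 75th percentile scaling, 0.24 with normexp and 0.61 without *Npas2*. In D it went from -0.31 to -0.16 and in C + P from -0.44 to -0.27 with normexp, and in D + P from 0.24 to 0.11 with 75th percentile scaling and 0.51 without *Npas2*. Leaving out *Npas2*, which gave 4 relations that passed, was an alternative chosen after seeing the data, as were gene by gene weights and leaving out C + P replicate 1 with D replicate 3.

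Signals near background limit *Arntl* and *Npas2*, and 3 arrays per group and an unknown hour of collection limit every comparison. Slides that coincide with pargyline limit the 2 comparisons with and without the drug, and slide rows that coincide with diabetes limit those with and without diabetes.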
